A study of Mus musculus with 6 samples.

Results

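The circadian clock genes of the mouse heart were followed in pressure overload, with and without stimulation of the vagus nerve. The group holds 10 genes out of the 18019 in the deposited table, taken by name: Arntl (also called Bmal1), Clock, Npas2, Per1, Per2, Per3, Cry1, Nr1d1, Nr1d2 and Dbp. Each was found by its NCBI gene ID, and all 10 were above the expression filter of a mean of 1 FPKM (fragments of RNA scaled to gene length and sequencing depth) over all libraries. The VNS-TAC group was 3 libraries of heart tissue from wild-type mice that had been given a virus with channelrhodopsin, a light-activated channel, in the dorsal vagal motor nucleus. The library names of this group carry the mark 10Hz. The Ctrl-TAC group was 3 libraries from wild-type mice whose virus carried the fluorescent protein GFP without the channel. In both groups the ChAT promoter, active in cholinergic neurones, drove the virus, the aorta had been narrowed by transverse aortic constriction (TAC), and hearts were taken 8 weeks later. Hearts without TAC were not analysed here, and the labels name no strain, sex, age or time of day of collection. The labels do not say that each library came from its own animal, so p-values measure the spread between libraries, part of which may be technical.

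The molecular clock is a feedback loop of transcription that runs in nearly every cell, cardiomyocytes included. A dimer of ARNTL with CLOCK, or with its relative NPAS2, switches on the Per and Cry genes, whose proteins then block the dimer, and the Nr1d genes, whose products REV-ERB alpha and beta repress Arntl. Dbp encodes an output factor that the dimer induces strongly. In mouse tissues Arntl therefore peaks at about the opposite time of day to Dbp, Nr1d1 and Per3, and a heart's RNA carries a mark of the hour at which it was taken.

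The clock genes did not separate VNS-TAC from Ctrl-TAC hearts. None of the 10 passed an adjusted p under 0.05 in limma, against 0% of the 11422 genes tested, and none had an unadjusted p under 0.05, against 15% of all genes. None had groups that did not overlap, against 25.4% of all genes. Of the 10, 4 were higher and 6 lower on average in VNS-TAC, and the median of their log2 fold changes was -0.14, beside -0.08 over all genes. What the genes did show was a wide spread among the Ctrl-TAC libraries. The highest Ctrl-TAC library exceeded the lowest 11.2-fold for Dbp and 9.69-fold for Arntl, while the same ratio among VNS-TAC libraries was 1.75 for Dbp and 1.87 for Arntl. Nr1d2 and Per1, alone among the members, went the other way, at 3.47 and 2.11 in VNS-TAC, against 2.09 and 1.43 in Ctrl-TAC.

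**Figure D1:**
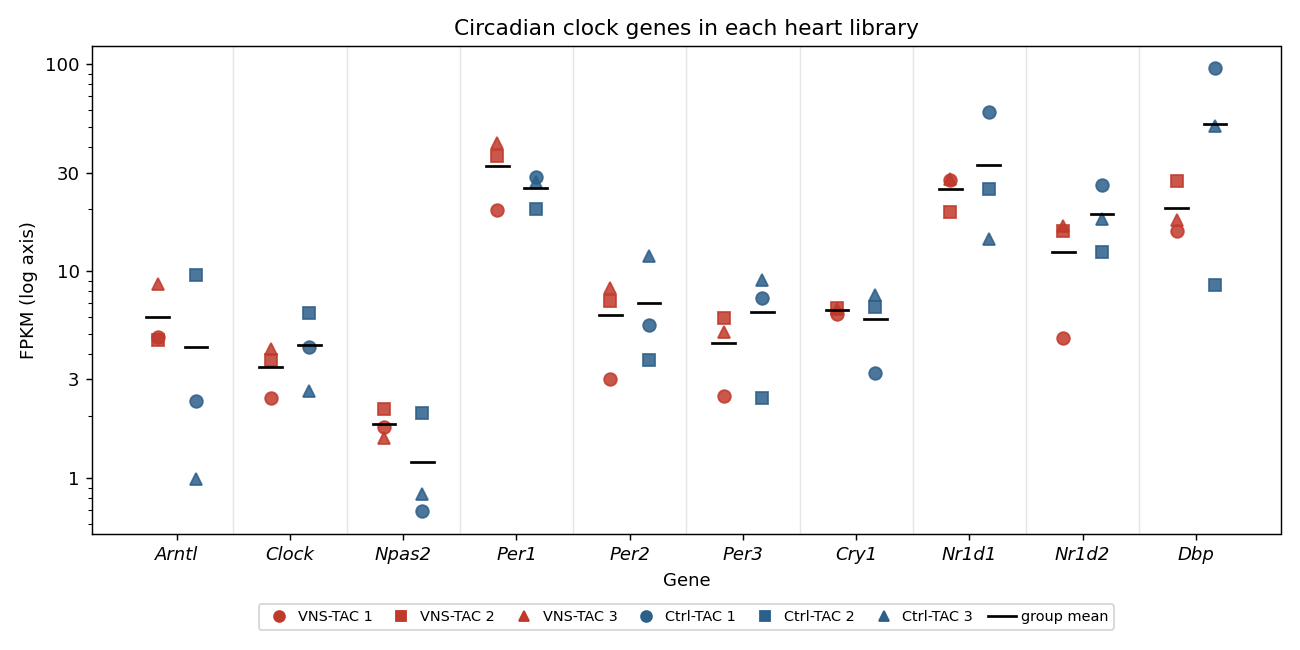
FPKM (log axis) of the 10 clock genes in each library, VNS-TAC in red on the left and Ctrl-TAC in blue on the right of each gene, with symbols for library 1, 2 and 3 and a black line at the group mean. The groups overlap for every gene, and the Ctrl-TAC points of Dbp run over 8.54 to 95.97 FPKM, against 15.68 to 27.42 FPKM in VNS-TAC.

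Promoter windows of the members were searched for the DNA elements of the loop. Per2 had no window, so it was not searched. Windows of 300 bases, 250 before to 50 after a transcription start (RefSeq, GRCm38.p6), were at hand for the other 9 genes. These were 13 windows in all. They were searched on both strands for the E-box CACGTG and its variant CACGTT, which the ARNTL dimer can bind, for the D-box bound by DBP and its relatives (TTATGTAA, TTACGTAA or TTACATAA), for the core of the element bound by ROR and REV-ERB proteins (TAGGTCA or TGGGTCA) and for the cAMP response element TGACGTCA. An E-box was in 2 of the 13 member windows, 1 each of Per1 and Cry1, and in 7.15% of all 32851 windows. The variant was in 2 of the 13, those of Cry1 and Nr1d1, and in 4.68% of all. Per3 alone among the 9 members searched held a D-box, in fact 2 of them in 1 window. Of all windows, 1.06% held at least 1 and 0.0244% held 2 or more. The ROR core was in 1 window of Arntl and in 6.45% of all, and no member window held the cAMP response element, which 1.79% of all did. A match is a match of letters and does not show binding. A window without a match does not show that the gene lacks the element, since DNA outside the windows was not read. The windows with matches are given below on the strand of the gene, with the matches in capitals, because they show where these elements lie in the members that hold them.
Arntl, chr7:113207261-113207560, plus strand, ROR core: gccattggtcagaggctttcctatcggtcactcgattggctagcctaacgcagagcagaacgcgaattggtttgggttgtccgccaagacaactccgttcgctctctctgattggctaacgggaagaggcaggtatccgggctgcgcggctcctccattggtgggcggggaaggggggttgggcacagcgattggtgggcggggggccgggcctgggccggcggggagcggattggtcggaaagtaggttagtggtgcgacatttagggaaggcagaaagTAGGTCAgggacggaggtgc
Per1, chr11:69098699-69098998, plus strand, E-box: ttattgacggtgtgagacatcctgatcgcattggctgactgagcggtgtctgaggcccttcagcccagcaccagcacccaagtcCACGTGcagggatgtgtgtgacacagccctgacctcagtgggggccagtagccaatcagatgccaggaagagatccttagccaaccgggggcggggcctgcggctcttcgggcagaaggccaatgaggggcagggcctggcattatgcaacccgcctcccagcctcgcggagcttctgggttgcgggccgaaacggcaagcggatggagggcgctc
Per3, chr4:151044616-151044915, minus strand, D-boxes: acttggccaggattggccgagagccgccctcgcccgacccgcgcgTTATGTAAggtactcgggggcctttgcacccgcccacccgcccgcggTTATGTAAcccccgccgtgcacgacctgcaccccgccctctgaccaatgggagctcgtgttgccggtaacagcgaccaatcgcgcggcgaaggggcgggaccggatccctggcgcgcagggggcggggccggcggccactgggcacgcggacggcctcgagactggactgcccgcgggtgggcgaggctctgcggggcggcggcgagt
Cry1, chr10:85185005-85185304, minus strand, E-box variant and E-box: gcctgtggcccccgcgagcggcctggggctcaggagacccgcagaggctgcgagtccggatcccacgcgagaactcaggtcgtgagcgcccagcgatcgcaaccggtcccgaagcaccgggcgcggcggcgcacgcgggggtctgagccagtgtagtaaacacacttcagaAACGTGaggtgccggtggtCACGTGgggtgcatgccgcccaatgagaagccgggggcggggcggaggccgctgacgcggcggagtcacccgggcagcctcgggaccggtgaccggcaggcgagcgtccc
Nr1d1, chr11:98775328-98775627, minus strand, E-box variant: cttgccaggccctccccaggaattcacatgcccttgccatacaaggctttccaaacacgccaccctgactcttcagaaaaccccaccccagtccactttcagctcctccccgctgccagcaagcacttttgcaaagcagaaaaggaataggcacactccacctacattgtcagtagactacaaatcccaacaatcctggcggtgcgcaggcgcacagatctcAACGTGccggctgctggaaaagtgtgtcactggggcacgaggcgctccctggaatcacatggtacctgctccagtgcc

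The genes are spread over the genome (gene spans from RefSeq, GRCm38.p6). Of the activators, Arntl lies at chr7:113178471-113314126 on the plus strand, Clock at chr5:76209868-76305603 on the minus strand and Npas2 at chr1:39193702-39363240 on the plus strand. Per1 lies at chr11:69095108-69109965 on the plus strand, and Per2 at chr1:91415977-91459351, Per3 at chr4:150997018-151044707 and Cry1 at chr10:85131700-85185054 on the minus strand. Nr1d1 at chr11:98767932-98775377 and Nr1d2 at chr14:18204056-18239106 are on the minus strand, and Dbp at chr7:45705100-45710203 is on the plus strand.

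Arntl encodes the partner of CLOCK or NPAS2 in the dimer that drives the loop. Its level in libraries 1, 2 and 3 was 4.82, 4.63 and 8.66 FPKM for VNS-TAC, against 2.35, 9.59 and 0.99 FPKM for Ctrl-TAC, and values of the other genes follow in the same library order. Ctrl-TAC 2 was the highest of the 6 libraries and Ctrl-TAC 3 the lowest, with all VNS-TAC values between them. The log2 fold change, on the log2(FPKM + 1) scale used throughout, was 0.72 ± 0.57 (SE; 95% interval -0.61 to 2.05; limma adjusted p = 0.548). It was 1.40 without Ctrl-TAC 2 and 0.19 without Ctrl-TAC 3, so single control libraries moved it by more than 1.5 times.

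Clock, whose product is the usual partner of ARNTL, was at 2.44, 3.71 and 4.23 FPKM in VNS-TAC, against 4.31, 6.27 and 2.63 FPKM in Ctrl-TAC. As for Arntl, Ctrl-TAC 2 was highest and Ctrl-TAC 3 lowest among the controls. Npas2, which can stand in for Clock, was at 1.77, 2.15 and 1.57 FPKM in VNS-TAC, against 0.69, 2.06 and 0.84 FPKM in Ctrl-TAC. Again Ctrl-TAC 2 stood highest among the controls, here within the VNS-TAC values, and the other 2 controls lay below every VNS-TAC library. Npas2 had the smallest adjusted p of the 10 members (0.425), with a log2 fold change in limma of 0.41 ± 0.24 (SE). It was 0.25 without Ctrl-TAC 1, 0.68 without Ctrl-TAC 2 and 0.71 with a pseudocount of 0.1. That of Clock was -0.24 ± 0.28, and it was -0.07 without VNS-TAC 1, 0 without Ctrl-TAC 2 and -0.50 without Ctrl-TAC 3.

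**Figure D2:**
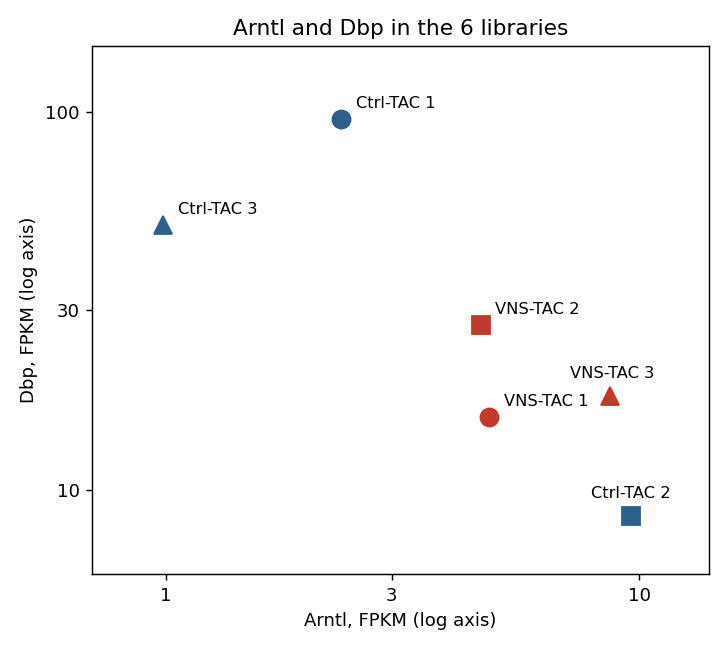
Arntl against Dbp in the 6 libraries, in FPKM on log axes, with VNS-TAC in red and Ctrl-TAC in blue. Ctrl-TAC 1 and 3 sit at the upper left with low Arntl and high Dbp, Ctrl-TAC 2 at the lower right with 9.59 FPKM of Arntl and 8.54 FPKM of Dbp, and the VNS-TAC libraries lie between them.

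Dbp was at 15.68, 27.42 and 17.77 FPKM in VNS-TAC, against 95.97, 8.54 and 50.42 FPKM in Ctrl-TAC. Its order among the controls was nearly the reverse of that of Arntl: the library with the most Arntl, Ctrl-TAC 2, had the least Dbp. The log2 fold change was -0.81 ± 0.76 (SE; 95% interval -2.59 to 0.98; limma adjusted p = 0.609), and it was -0.10 without Ctrl-TAC 1 and -1.77 without Ctrl-TAC 2. The ratio of Arntl to Dbp in FPKM was 0.307, 0.169 and 0.487 in VNS-TAC 1, 2 and 3, against 0.0245, 1.12 and 0.0196 in Ctrl-TAC 1, 2 and 3. All 3 VNS-TAC libraries thus lay between Ctrl-TAC 2 on one side and Ctrl-TAC 1 and 3 on the other. On the log2 scale Arntl less Dbp averaged -1.60 ± 0.69 in VNS-TAC and -3.13 ± 2.84 in Ctrl-TAC (SD, n = 3 each).

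The REV-ERB genes encode the nuclear receptors that repress Arntl. Nr1d1 was at 27.63, 19.45 and 28.05 FPKM in VNS-TAC, against 58.70, 24.91 and 14.25 FPKM in Ctrl-TAC. Ctrl-TAC 1, which also had the most Dbp, was highest, and Ctrl-TAC 3 was lowest although its Dbp was the second highest of all libraries. Nr1d2 was at 4.77, 15.69 and 16.56 FPKM in VNS-TAC, against 26.04, 12.46 and 17.98 FPKM in Ctrl-TAC. Here VNS-TAC 1 stood apart below the other 5 libraries. The log2 fold changes were -0.16 ± 0.45 for Nr1d1 and -0.68 ± 0.45 for Nr1d2 (SE; limma adjusted p = 0.88 and 0.485). That of Nr1d1 was 0.37 without Ctrl-TAC 1, 0.01 without VNS-TAC 2, -0.61 without Ctrl-TAC 3 and -0.72 with array weights. That of Nr1d2 was -0.15 without VNS-TAC 1 and -0.42 without Ctrl-TAC 1.

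The Per genes and Cry1 encode the proteins that close the loop by blocking the ARNTL dimer. Per3, whose window holds the pair of D-boxes, was at 2.49, 5.96 and 5.11 FPKM in VNS-TAC, against 7.45, 2.43 and 9.09 FPKM in Ctrl-TAC. Its controls were ordered in part as for Dbp, with Ctrl-TAC 2 lowest, but Ctrl-TAC 3 was above Ctrl-TAC 1. Per2 was at 3.02, 7.16 and 8.34 FPKM in VNS-TAC, against 5.47, 3.73 and 11.84 FPKM in Ctrl-TAC. Ctrl-TAC 3 was the highest library for both Per2 and Per3, and VNS-TAC 1 and Ctrl-TAC 2 were the lowest pair for both. The log2 fold changes were -0.33 ± 0.44 for Per3 and -0.12 ± 0.43 for Per2 (SE; limma adjusted p = 0.722 and 0.907). That of Per3 was -0.80 without Ctrl-TAC 2, -0.02 without Ctrl-TAC 3 and -0.03 without VNS-TAC 1, and that of Per2 was 0.25 without VNS-TAC 1 and 0.29 without Ctrl-TAC 3.

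Per1, which glucocorticoids and cAMP signals also induce rapidly, was at 19.73, 36.05 and 41.54 FPKM in VNS-TAC, against 28.60, 20.06 and 26.87 FPKM in Ctrl-TAC. It was the one member whose controls all lay within the VNS-TAC range. Cry1, the transcript of a late repressor, was at 6.23, 6.64 and 6.60 FPKM in VNS-TAC, against 3.22, 6.73 and 7.72 FPKM in Ctrl-TAC. The VNS-TAC values were nearly equal, the highest 1.07 times the lowest, while Ctrl-TAC 1 lay below the other 5 libraries. The log2 fold changes were 0.30 ± 0.28 for Per1 and 0.19 ± 0.26 for Cry1 (SE; limma adjusted p = 0.598 and 0.738), and that of Cry1 was -0.13 without Ctrl-TAC 1 and 0.39 without Ctrl-TAC 3. That of Per1 was 0.62 without VNS-TAC 1, 0.10 without VNS-TAC 3 and 0.15 without Ctrl-TAC 2.

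Set side by side, the 3 control libraries had different clock profiles. Ctrl-TAC 1 combined the most Dbp (95.97 FPKM), Nr1d1 (58.70) and Nr1d2 (26.04) with the least Cry1 (3.22) and Npas2 (0.69). Ctrl-TAC 3 combined the most Per2 (11.84 FPKM), Per3 (9.09) and Cry1 (7.72) with the least Arntl (0.99) and Nr1d1 (14.25). Ctrl-TAC 2 combined the most Arntl (9.59 FPKM) and Clock (6.27) with the least Dbp (8.54) and Per3 (2.43). The VNS-TAC libraries resembled each other more in Arntl, Cry1, Nr1d1 and Dbp, and VNS-TAC 1 had the least Per1, Per2, Nr1d2 and Clock of the 6 libraries. The ratio of Nr1d1 to Per2 in FPKM, which sets an early product of the dimer against a later one, was 9.15, 2.72 and 3.36 in VNS-TAC 1, 2 and 3, against 10.7, 6.68 and 1.2 in Ctrl-TAC 1, 2 and 3. Whether the tissue was taken at different hours was not tested, since the labels give no hour.

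**Figure D3:**
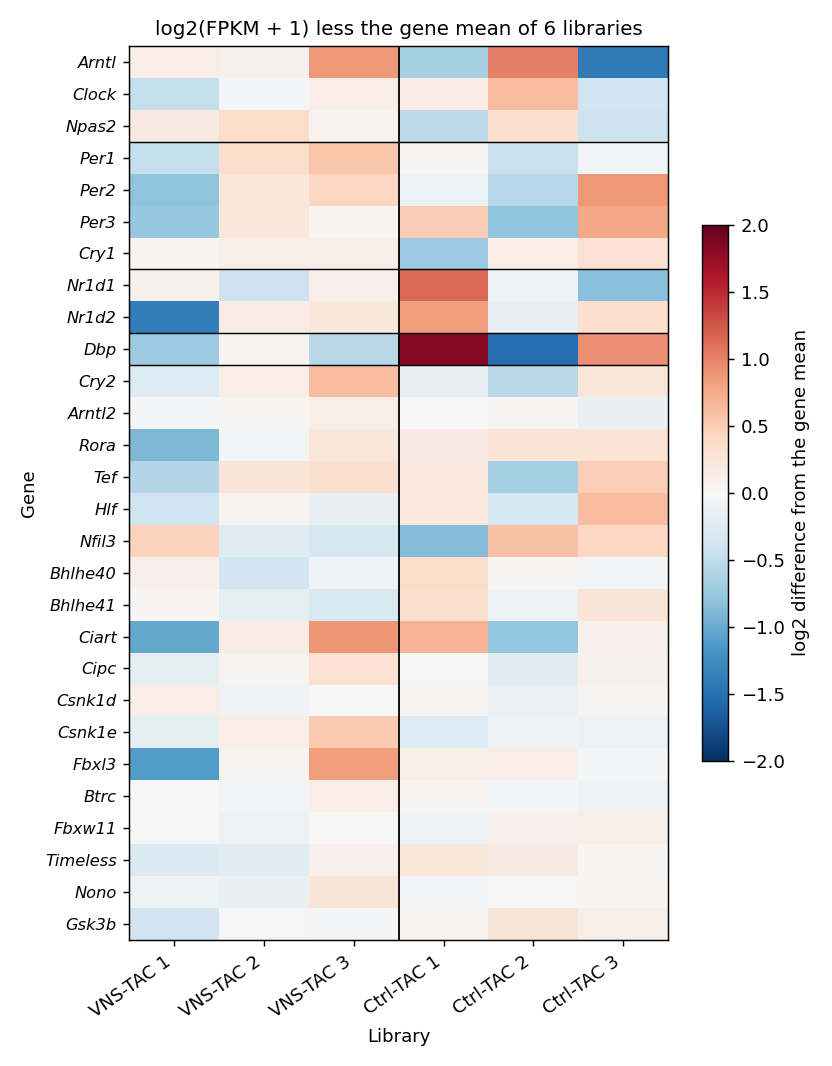
Each gene's log2(FPKM + 1) less its mean over the 6 libraries, with VNS-TAC left and Ctrl-TAC right of the vertical line. Rows run from the activators (Arntl, Clock, Npas2) over the repressors, the REV-ERB genes and Dbp to 18 other clock components. Dbp has the widest Ctrl-TAC colours, from 1.82 in Ctrl-TAC 1 to -1.52 in Ctrl-TAC 2, and Nr1d2 in VNS-TAC 1 (-1.38) also stands out.

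The spread among controls was measured against that of all genes. The SD of the log2 values was larger in Ctrl-TAC than in VNS-TAC for 8 of the 10 members, against 18.4% of all 11422 genes. The exceptions were Per1 (SD 0.55 in VNS-TAC and 0.26 in Ctrl-TAC) and Nr1d2 (0.91 and 0.50). The median SD of the members was 0.42 in VNS-TAC and 0.65 in Ctrl-TAC, and over all genes it was 0.25 in VNS-TAC and 0.11 in Ctrl-TAC. The count of 8 did not change with size factors, quantile normalization, equal library sums or removal of the GC trend. For 5 members, namely Arntl, Per3, Cry1, Nr1d1 and Dbp, all VNS-TAC values lay within the Ctrl-TAC range, as they did for 3.96% of all genes. The opposite nesting held for 1 member, Per1, and for 31.8% of all genes.

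By the log2 distance from the highest to the lowest control, Dbp ranked 5 of 11422 genes, at 3.35, beside a median of 0.21 over all genes. Arntl ranked 14 (2.41), Nr1d1 27 (1.97), Per3 47 (1.56) and Per2 64 (1.44). Cry1, Nr1d2, Clock and Npas2 ranked 132, 143, 144 and 201, and Per1 993. The share of all genes with a wider range than the member was thus at most 1.75% in Ctrl-TAC, that of Npas2, for every member but Per1 (8.68%). In VNS-TAC the share was 2.7% for Nr1d2, 6.87% for Per2, 11.4% for Per1 and 12.7% for Per3, and 23.3% to 97.7% for the other members. The 4 genes above Dbp, named after their values were seen, were Bmp10, which is expressed in the atrium, Ccl21b, a chemokine gene with close copies, and a pair of uncharacterised loci that had the same values as each other in every library. These ranks describe the 3 control libraries and carry no test.

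**Figure D4:**
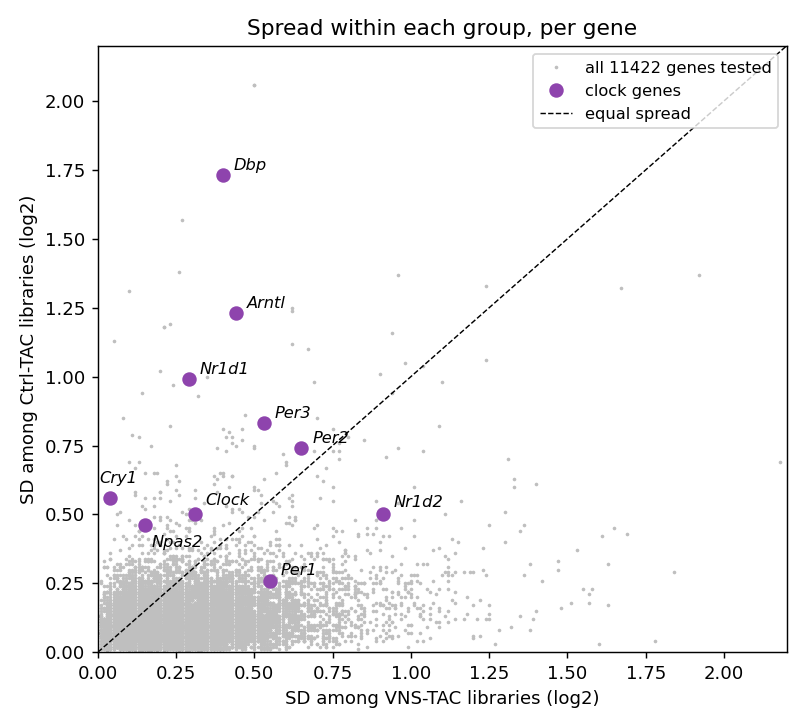
SD of log2(FPKM + 1) among the VNS-TAC libraries (horizontal) against that among the Ctrl-TAC libraries (vertical) for the 11422 genes tested (grey) and the 10 clock genes (purple), with a dashed line at equal spread; 8 genes lie outside the axes. Dbp, at 0.40 and 1.73, and Arntl, at 0.44 and 1.23, lie far above the line, and Per1 and Nr1d2 below it.

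Markers of other cell types also differed between the libraries. Of the 8 atrial markers, 7 also had a larger SD in Ctrl-TAC than in VNS-TAC. Their summed level was 3902, 5573 and 9177 FPKM in VNS-TAC 1, 2 and 3, against 6370, 3100 and 10002 FPKM in Ctrl-TAC 1, 2 and 3. Among the controls this sum ran opposite to Arntl. Within VNS-TAC it did not, since VNS-TAC 3 had both the highest sum and the most Arntl of its group. Bmp10 was the one atrial marker listed at 0 in a library, Ctrl-TAC 3. The 10 smooth muscle and pericyte markers, all above 0 in every library, summed to 196, 234 and 215 FPKM in VNS-TAC, against 242, 383 and 269 FPKM in Ctrl-TAC, highest in the library with the most Arntl. In heart tissue, fewer cells of a type and less RNA per cell cannot be told apart. The 10 cardiomyocyte markers differed little among the controls, at 54732 to 56585 FPKM, and summed to 46132 to 71906 FPKM in VNS-TAC. All 10 fibroblast markers were lower on average in VNS-TAC, 4 of them without overlap, with a median log2 fold change of -0.76. All 10 smooth muscle and pericyte markers were also lower, 4 without overlap, with a median of -0.48. Of 10 endothelial markers 8 were lower, 4 without overlap, and of 10 macrophage markers 8, 1 without overlap. Over all genes 17.4% were lower without overlap. The erythroid sum was 1503, 310 and 25.1 FPKM in VNS-TAC, against 578, 272 and 183 FPKM in Ctrl-TAC. The part of tissue make-up in the clock values was not tested.

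The libraries had about 13520000 to 15680000 fragments each, estimated from the steps of low FPKM values. The smallest estimated number behind a member's value was about 42 fragments (Npas2 in Ctrl-TAC 1), and Arntl in Ctrl-TAC 3 rested on about 58 and in Ctrl-TAC 2 on about 518, taking the longest annotated transcript as the gene's length. The depth estimate used the length of all annotated exons instead, for Arntl 7523 bases, against 3995 in the longest transcript. With that length the fragment numbers would be larger, so they are rough. The VNS-TAC libraries stood apart from each other over all genes, VNS-TAC 3 on principal component 1 (46.4, against -16.6 to 4.6 in the other 5) and VNS-TAC 1 on component 2 (36.5, against -18.3 to 4.5). GC content tracked the distance of a gene from its mean in VNS-TAC 1 (Spearman rho 0.55 across genes, which are not replicates). In VNS-TAC 2 and 3 rho was 0.02 and -0.1. It was negative in all controls, at -0.32, -0.42 and -0.09 in Ctrl-TAC 1, 2 and 3, so the trend differed in part between the groups. Clock and Nr1d2 had the lowest GC content of the members, 40.9% and 41.8%. With the GC trend removed, the VNS-TAC values of Clock were 0.05, 0.01 and 0.03 from the gene mean on the log2 scale and its fold change was 0.06 in place of -0.24, while Nr1d2 was at -0.95 in place of -1.38 in VNS-TAC 1 and its fold change was -0.42 in place of -0.68. Exons of Nr1d1 and Dbp overlap those of Thra and Sphk2 on the opposite strand over 263 and 539 bases (8.5% and 18.0% of their annotated exons, GENCODE M21), and whether the counting used strand is not given in the sources used here. Thra was at 51.28 to 66.42 FPKM in VNS-TAC and 40.37 to 51.38 FPKM in Ctrl-TAC, and Sphk2 at 13.51 to 15.64 and 11.89 to 13.02 FPKM. The part of these overlaps in the values of Nr1d1 and Dbp was not tested.

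By mean FPKM in VNS-TAC, the highest members were Per1 (32.4 FPKM), Nr1d1 (25.0), Dbp (20.3) and Nr1d2 (12.3). Then came Cry1 (6.49), Per2 (6.17), Arntl (6.04), Per3 (4.52), Clock (3.46) and Npas2 (1.83). In Ctrl-TAC the order was Dbp (51.6 FPKM), Nr1d1 (32.6), Per1 (25.2), Nr1d2 (18.8), Per2 (7.01), Per3 (6.32), Cry1 (5.89), Clock (4.40), Arntl (4.31) and Npas2 (1.2). Neighbours in either order overlapped over their 3 libraries, except Clock and Npas2 in VNS-TAC and Nr1d2 and Per2 in Ctrl-TAC. FPKM also depends on the gene lengths used, which the sources do not give, so the order between genes is rough. The standard error of the members' fold changes was 0.24 to 0.76 on the log2 scale, beside a median of 0.16 over all genes, so a group difference had to be larger for these genes than for most to be detectable with 3 libraries a group.

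Other components of the clock were as little separated. Of 21 such genes 19 were tested, 9 higher and 10 lower in VNS-TAC, and their median fold change on the log2 scale was -0.02. None passed the adjusted threshold in limma and none had an unadjusted p under 0.05. The values of Gsk3b, a kinase that phosphorylates clock proteins, were 7.63, 10.18 and 9.96 FPKM in VNS-TAC, all below the 10.79, 12.49 and 11.24 FPKM of Ctrl-TAC, and it was the 1 gene of the list without overlap (limma adjusted p = 0.375), where 17.4% of all genes were lower and 8.01% higher without overlap. Bhlhe41, the repressor DEC2, and Timeless came after it by p, at -0.32 ± 0.17 and -0.29 ± 0.15 on the log2 scale (SE; limma adjusted p = 0.386 and 0.398). The SD was larger in Ctrl-TAC for 7 of the 19 (36.8%), against 18.4% of all genes.

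Relatives of Dbp and its opponent, chosen after their values were seen, followed the controls' pattern in part. Tef, which encodes a second D-box activator, was at 30.85, 55.77 and 58.61 FPKM in VNS-TAC, against 54.07, 29.14 and 66.32 FPKM in Ctrl-TAC. Hlf, the third of this family, was at 3.76, 5.57 and 4.68 FPKM in VNS-TAC, against 6.21, 3.98 and 8.67 FPKM in Ctrl-TAC. Both had their lowest control value in Ctrl-TAC 2 and their highest in Ctrl-TAC 3, as Per2 and Per3 did. Nfil3, the D-box repressor that REV-ERB alpha holds down, was at 20.24, 12.22 and 11.48 FPKM in VNS-TAC, against 7.55, 22.62 and 19.94 FPKM in Ctrl-TAC. It was lowest where Nr1d1 was highest, in Ctrl-TAC 1, but the other libraries did not keep this opposite order. Nfil3 was highest in Ctrl-TAC 2, while Nr1d1 was lowest in Ctrl-TAC 3. Both genes were higher in VNS-TAC 1 than in VNS-TAC 2.

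Output genes with daily rhythms in heart were described from a list of 20, of which 19 were tested. Of these, 12 were higher and 7 lower in VNS-TAC, and 5 had an unadjusted p under 0.05, against 15% of all genes, but none passed the adjusted threshold in limma. In 4 of the 19 the groups did not overlap, 3 higher and 1 lower, against 25.4% of all genes, so this share was near the background. Pdk4, the kinase that turns off pyruvate oxidation, was at 41.53, 93.56 and 64.85 FPKM in VNS-TAC, against 159.17, 193.10 and 210.45 FPKM in Ctrl-TAC. Every VNS-TAC value lay below every control, a log2 fold change of -1.54 ± 0.28 (SE; limma adjusted p = 0.179). Kcnh2, a potassium channel of repolarisation, was at 38.81, 34.29 and 31.69 FPKM in VNS-TAC, against 22.30, 17.12 and 26.94 FPKM in Ctrl-TAC. Its groups did not overlap, with a log2 fold change of 0.65 ± 0.18 (SE; limma adjusted p = 0.236).

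Rbm3 and Cirbp encode cold-inducible RNA-binding proteins whose transcripts follow the daily course of body temperature. Rbm3 was at 102.70, 103.44 and 197.86 FPKM in VNS-TAC, against 54.78, 40.05 and 62.05 FPKM in Ctrl-TAC, and Cirbp at 37.45, 48.19 and 128.28 FPKM, against 36.54, 29.11 and 34.41 FPKM. The groups overlapped for neither gene, although VNS-TAC 1 exceeded Ctrl-TAC 1 only slightly for Cirbp, and VNS-TAC 3 was highest for both. The log2 fold changes were 1.30 ± 0.28 for Rbm3 and 0.87 ± 0.41 for Cirbp (SE; limma adjusted p = 0.192 and 0.358). Coq10b, of coenzyme Q function, overlapped at 12.47, 18.26 and 7.22 FPKM in VNS-TAC, against 25.50, 17.02 and 23.77 FPKM in Ctrl-TAC. Among the controls Coq10b had the order of Dbp, lowest in Ctrl-TAC 2 and highest in Ctrl-TAC 1. Its log2 fold change was -0.82 ± 0.31 (SE; limma adjusted p = 0.289).

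Glucocorticoids set the clock of the heart and induce Per1. Of 10 glucocorticoid-induced genes, 6 were higher in VNS-TAC and none passed in limma, although 3 had an unadjusted p under 0.05, against 15% of all genes. In 2 of the 10 the groups did not overlap, both higher, against 8.01% of all genes higher and 25.4% in either direction. Fkbp5, a feedback regulator of the receptor, was at 7.25, 16.99 and 61.01 FPKM in VNS-TAC, against 6.71, 11.17 and 8.25 FPKM in Ctrl-TAC. The metallothionein gene Mt1 and Lcn2, which neutrophils also express, were these 2, with log2 fold changes of 0.69 ± 0.23 and 2.58 ± 0.70 (SE; limma adjusted p = 0.264 and 0.236). Its genes differed in their order over the libraries: VNS-TAC 3 was the highest library for Fkbp5, Mt1 and Lcn2, but the lowest for Sgk1, a kinase gene (30.41 FPKM there), and Tsc22d3, which encodes the mediator GILZ, was higher in VNS-TAC 2 and Ctrl-TAC 3 than in VNS-TAC 3. Neutrophil markers summed to 58.6, 48.4 and 103 FPKM in VNS-TAC, against 5.38, 6.74 and 2.78 FPKM in Ctrl-TAC. All 5 of the 10 that were tested were higher without overlap, against 8.01% of all genes. The filter took the mean over both groups, so markers this low in Ctrl-TAC could pass it through VNS-TAC alone. This count is therefore partly set by the filter. Ngp, Camp, Ltf and Ly6g were at 0 in at least 1 library. The part of neutrophils in Lcn2 was not tested.

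**Figure D5:**
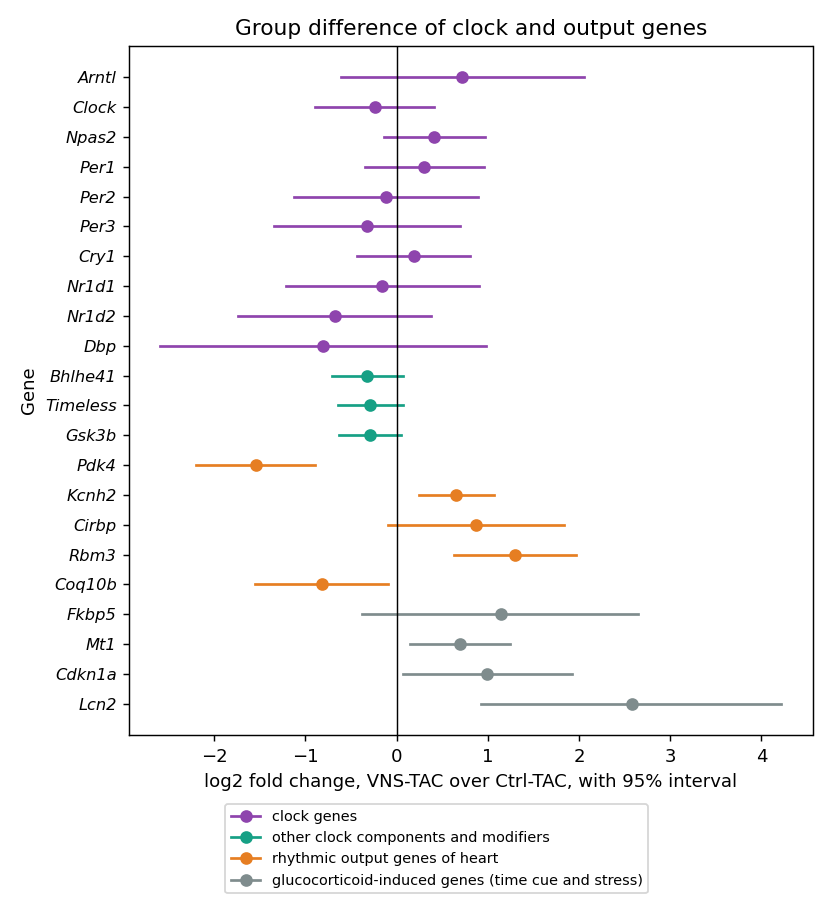
log2 fold change of VNS-TAC over Ctrl-TAC with its 95% interval (limma) for the 10 clock genes (purple) and named genes of the other lists, on the log2(FPKM + 1) scale. The interval of every clock gene spans 0, and that of Dbp, from -2.59 to 0.98, is the widest of the clock genes.

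The genes whose values over the 6 libraries were most like those of Dbp were found by the root mean square difference of the centred log2 values. Per3 came first, at 0.666, where Dbp itself varied by 1.101 about its mean. It was followed by Nrn1 (0.698), Sln (0.735), Tcap (0.751) and Myl1 (0.757). Sln is an atrial marker, at 134.85, 185.56 and 185.08 FPKM in VNS-TAC, against 216.05, 73.42 and 499.67 FPKM in Ctrl-TAC. The nearest to Arntl was Cdkn1a, a cell cycle inhibitor, at a difference of 0.361, where Arntl varied by 0.837. Cdkn1a is on both the list of rhythmic output genes and that of glucocorticoid-induced genes. It is therefore in both of their counts of genes with an unadjusted p under 0.05. It was at 58.59, 60.51 and 109.89 FPKM in VNS-TAC, against 26.42, 66.73 and 26.67 FPKM in Ctrl-TAC, with a log2 fold change of 0.99 ± 0.40 (SE; limma adjusted p = 0.308). As for Arntl, Ctrl-TAC 2 stood far above the other controls and VNS-TAC 3 was the highest of its group. Bcl3 (0.499), Fxyd7 (0.542), Ccl6 (0.543) and Vsig4 (0.549) came next. A match over 6 libraries is a description of these libraries.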

How the data were processed

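RNA was measured in heart tissue of 3 VNS-TAC and 3 Ctrl-TAC samples, grouped by sample title. The table lists 18019 NCBI gene IDs, and its deposited unit is FPKM, as the authors computed it, per the file headers. The submitters' processing notes name the build GRCm38 and the tools HISAT, featureCounts (1.5.0-p3) and DESeq (1.8.3). For annotation and settings, nothing is given in the sources. Ctrl-TAC columns were matched by library name. VNS-TAC columns, numbered 1 to 3 where the labels have 4 to 6, were used as 3 libraries of the group. The names VNS-TAC 1, 2 and 3 follow the column numbers and need not be the samples with these numbers in their titles. Symbols of 17890 IDs came from RefSeq (GRCm38.p6).

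Values were analysed as log2(FPKM + 1), which understates fold changes of low genes, for 11422 genes whose mean reached 1 FPKM. Groups were compared with limma 3.58.1 (R 4.3.3, intensity trend, 4 residual degrees of freedom), Benjamini-Hochberg adjusted over all genes at 0.05, and the script was checked on simulated data. Python 3.11.15, pandas 2.3.3, numpy 2.4.6 and matplotlib 3.10.9 handled tables and figures. Depth was estimated from the steps of low FPKM values over genes of known length and used in no test; it ignores PCR duplicates.

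Members and gene lists were chosen with earlier results of these data known. All members were named, with the 4 genes of smallest p and those without overlap from each other list, and the 5 genes most like Dbp and Arntl; 1 gene that the rule names is not reported here, though counts over its list include it. Alternatives were other pseudocounts (0.1 and 0.5), filters (none and 5 FPKM), scalings, limma without trend, robust or with array weights, removal of the GC trend (medians of 50 bins), and leaving out each library.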

Additional observations from a re-analysis of the deposited data

How the results depend on the processing

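No clock gene passed the adjusted threshold in any of the alternatives run, and the number of members higher in VNS-TAC was 3 to 6, against 4. Over all genes 0 were called, but 1 where a mean of 5 FPKM was required (which leaves out Clock and Npas2), 2 with size factors, quantile normalization or the GC trend removed, and 1016 with array weights, which gave VNS-TAC 2 a weight of 2.82, against 0.246 and 0.247 for VNS-TAC 1 and 3; leaving out 1 library gave 0 to 3. The sign of small fold changes turned. Per2 (-0.12) was at 0.01 after quantile normalization and 0.24 with array weights, and at -0.44 to 0.29 with 1 library left out. Clock (-0.24) was at 0.06 with the GC trend removed. With 1 library left out, Nr1d1 (-0.16, and -0.72 with array weights) ran over -0.61 to 0.37, Cry1 over -0.13 to 0.39 and Dbp over -1.77 to -0.10. The cause was not tested. Arntl, Npas2, Per1, Per3, Nr1d2 and Dbp kept their direction in every alternative, except that Per3 was at 0 with array weights. No paired analysis was possible because the VNS-TAC columns carry other numbers (1 to 3) than the labelled libraries (4 to 6), so a replicate block was not run.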
